A study of Mus musculus with 33 samples.

Results

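Scavenger receptors and their partners in lipid uptake were followed through 8 genes of the 21950 counted: Cd36, Msr1, Marco, Scarb1, Olr1, Lrp1, Lrp12 and Plin2. The genes were given by symbol, and each matched 1 row of the count table. Cd36 was chosen by its CPM in resting microglia, lower with inhibitor than with vehicle, so inhibitor against vehicle in resting microglia is described for all 8 genes with no test. For the same reason Cd36 has no test in comparisons that include resting microglia.

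The 33 libraries were made from flow-sorted brain cells of mice with the disease induction labelled Cortical MS, which every group carried. There were 3 sorted populations: resting microglia, with intermediate CD45 and CD11b; activated microglia, with high CD45 and CD11b and no CCR2; and blood-derived phagocytes, with high CD45 and CD11b and CCR2. Each had 6 libraries from mice given an inhibitor of the CSF1 receptor (CSF1R), a kinase that microglia need to survive, and 5 from mice given vehicle. The labels give no strain, age, sex, inhibitor name or dose, and do not say whether each library is 1 animal, so p-values measure the spread between these libraries.

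Scavenger receptors are surface proteins with which macrophages take up modified lipoproteins, dying cells and debris. The low-density lipoprotein (LDL) receptor family brings in lipoproteins and many other ligands by endocytosis. Lipid that is taken up and not used or exported is stored in droplets, whose coat includes perilipins. In brain with myelin damage, phagocytes are known to load lipid from myelin debris.

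Library totals ran from 11789803 to 22146705 counts, and 9740 to 14853 genes had at least 1 count. All 3 libraries under 11000 detected genes were activated microglia. The sums of 8 microglial markers ran from 19980 to 32060 counts per 1000000 counts of the library (CPM) in resting microglia, from 2516 to 3753 in blood-derived phagocytes and from 900 to 4689 in activated microglia. The sums of 11 neutrophil markers ran from 20150 to 141700 CPM in activated microglia, against 401 to 1061 in the other populations. Ccr2 averaged 90.2 ± 52.1 CPM (SD, n = 5) in activated microglia with vehicle, a population sorted as CCR2-negative, against 215 ± 25.4 in blood-derived phagocytes and 7.75 ± 7.90 in resting microglia. Activated microglia thus held less of the microglial markers than resting microglia did, with none of the 8 at 0, and more of the neutrophil markers. The numbers of sorted cells varied widely, and the few libraries of very low input had more amplification cycles, per the labels' protocols, which do not say which libraries these were. In such bulk libraries, fewer cells of a type and less RNA per cell cannot be told apart.

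**Figure D1:**
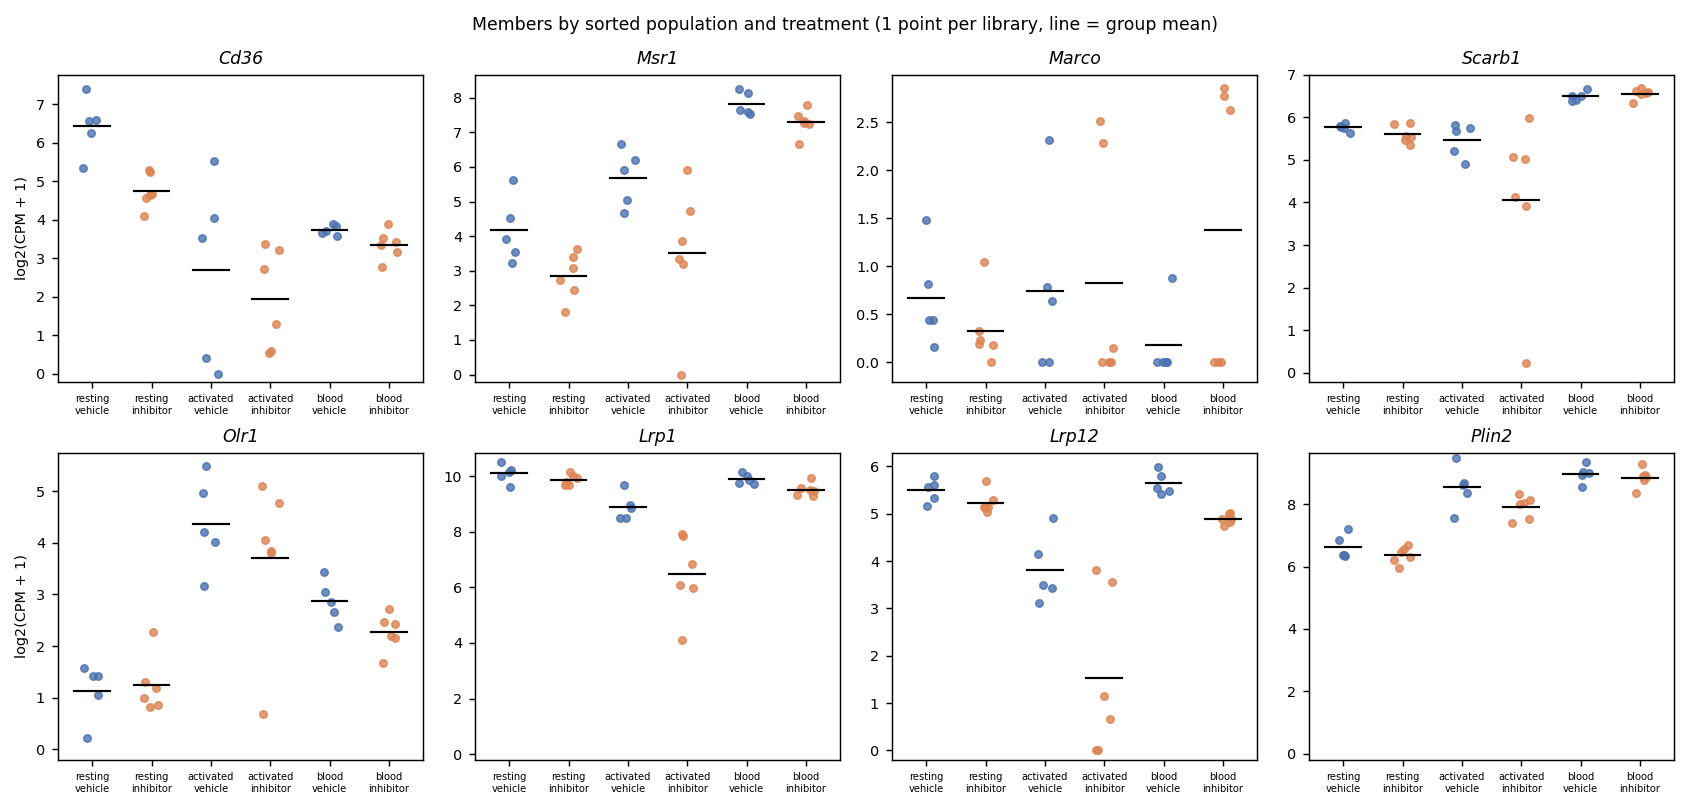
Each point is 1 library, on a log2(CPM + 1) axis, for the 8 genes in the 3 sorted populations with vehicle (blue) or inhibitor (orange), and the line is the group mean. Cd36 was highest in resting microglia with vehicle (94.4 CPM on average), Msr1 in blood-derived phagocytes with vehicle (232 CPM) and Olr1 in activated microglia with vehicle (22.8 CPM).

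Cd36, at 5:17781690-17888801 on the minus strand of GRCm38 (ENSMUSG00000002944), encodes a receptor for long-chain fatty acids and oxidised LDL. Resting microglia with vehicle held 75.3, 95.3, 39.8, 93.5 and 168 CPM. With inhibitor the lowest, median and highest of the 6 libraries were 16.2, 24.2 and 38.0 CPM. All 5 vehicle libraries lay above all 6 inhibitor libraries, and the closest pair stood at 39.8 and 38.0 CPM.

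The difference in resting microglia was -1.81 ± 0.34 (SE) on the log2 scale, a level 3.52-fold lower with inhibitor. This is the contrast from which Cd36 was picked, and it is given as a description. Of 12226 genes in that fit, 0.401% lay wholly lower with inhibitor, and 0.0% were called by edgeR at an adjusted p under 0.05, with 671 at an unadjusted p under 0.05 and 13 called by DESeq2. Markers of other cells were read beside it. The sum of 8 endothelial markers ran from 71.6 to 129 CPM with inhibitor and from 63.0 to 199 with vehicle, and the sum of 8 monocyte-derived markers ran from 32.6 to 54.0 CPM with inhibitor and from 56.3 to 121 with vehicle. The monocyte-derived sums did not overlap. Blood-derived phagocytes, in which that sum was at least 1811 CPM, held 12.3 ± 1.14 CPM (SD, n = 5) of Cd36 with vehicle. Activated microglia with vehicle, in which it ran from 2740 to 5483 CPM, held 0 to 45.3 CPM of Cd36. The part of these markers in the Cd36 difference was not tested.

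In blood-derived phagocytes Cd36 ran from 11.0 to 13.7 CPM with vehicle and from 5.85 to 13.9 with inhibitor, and these ranges overlapped. In activated microglia with vehicle the libraries held 15.7, 0.323, 0, 10.6 and 45.3 CPM, and with inhibitor 0.447 to 9.30 CPM. These ranges overlapped too, and 1 vehicle library was at 0. Relative to vehicle, Cd36 differed by -0.42 ± 0.19 (SE) in blood-derived phagocytes (edgeR adjusted p = 0.322) and by -1.75 ± 1.40 in activated microglia (adjusted p = 0.999). Between the populations, with no test, Cd36 in vehicle libraries was 2.79 ± 0.33 log2 units lower in blood-derived phagocytes than in resting microglia (a fold change of 0.145).

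The 250 bases before the RefSeq start of Cd36, Olr1 and Plin2 are shown because these genes had their highest group mean in 3 different populations: Cd36 in resting microglia, Olr1 in activated microglia and Plin2 in blood-derived phagocytes. The sequences are from RefSeq (GRCm38.p6), 5′ to 3′ on the minus strand, and 5 of the 8 genes had an entry. Capitals mark matches to the PU.1 core GAGGAA, read on both strands, and to the AP-1 motif TGAGTCA, also on both strands. Also searched was the E-box CACGTG.
Cd36: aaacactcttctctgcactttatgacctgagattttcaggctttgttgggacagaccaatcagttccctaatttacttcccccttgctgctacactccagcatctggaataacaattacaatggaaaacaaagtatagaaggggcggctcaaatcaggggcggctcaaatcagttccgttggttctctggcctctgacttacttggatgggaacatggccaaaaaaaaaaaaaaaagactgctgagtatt
Olr1: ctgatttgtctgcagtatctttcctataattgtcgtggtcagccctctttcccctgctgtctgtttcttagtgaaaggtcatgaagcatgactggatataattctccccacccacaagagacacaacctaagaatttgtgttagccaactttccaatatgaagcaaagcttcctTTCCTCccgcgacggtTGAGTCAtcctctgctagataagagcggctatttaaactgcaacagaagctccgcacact
Plin2: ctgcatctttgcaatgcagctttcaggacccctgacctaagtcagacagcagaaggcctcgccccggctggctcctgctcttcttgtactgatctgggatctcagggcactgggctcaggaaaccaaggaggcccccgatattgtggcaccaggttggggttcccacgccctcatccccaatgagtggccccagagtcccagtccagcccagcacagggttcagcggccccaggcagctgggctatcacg
The Cd36 window is chr5:17835897-17836146, inside the annotated span of the gene, the Olr1 window is chr6:129507166-129507415 and the Plin2 window is chr4:86670060-86670309. Olr1 holds 1 PU.1 core, as TTCCTC, 70 bases from the start and 1 AP-1 motif 53 bases from the start, which do not overlap. None of the 3 motifs is in the Cd36 or Plin2 window, nor in that of Lrp1, and Marco holds 1 PU.1 core 140 bases from its start. Of 32851 promoter windows of this length, 23.3% hold the PU.1 core, 4.46% the AP-1 motif and 6.02% the E-box.

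Msr1 (8:39581685-39642673, ENSMUSG00000025044), the class A scavenger receptor that binds acetylated and oxidised LDL, had its highest levels in blood-derived phagocytes. With vehicle these libraries held 305, 190, 200, 283 and 183 CPM, and with inhibitor 100 to 220 CPM with a median of 158. Activated microglia with vehicle held 99.9, 31.7, 73.3, 24.3 and 58.7 CPM. Resting microglia with vehicle held 22.1, 48.4, 14.1, 8.40 and 10.6 CPM. The populations with vehicle lay in that order, with the blood-derived libraries above all others, while activated and resting microglia overlapped.

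In vehicle libraries Msr1 was 12.2-fold higher in blood-derived phagocytes than in resting microglia, a log2 difference of 3.61 ± 0.47 (SE, edgeR adjusted p = 5.82e-05). It was 1.99 ± 0.35 higher than in activated microglia (adjusted p = 0.00226). Activated exceeded resting microglia by 1.61 ± 0.54 (adjusted p = 0.0459), and this call was lost when any of 7 single libraries was left out, with adjusted p from 0.0659 to 0.112. With inhibitor, blood-derived phagocytes again exceeded resting microglia, by 4.66 ± 0.34 (adjusted p = 1.15e-07), and activated microglia, by 2.88 ± 0.86 (adjusted p = 0.0293), lost without any of 7 single libraries (adjusted p from 0.0502 to 0.0643). Activated and resting microglia with inhibitor differed by 1.80 ± 0.98 (adjusted p = 0.18), a difference called in 3 of 9 other settings. Higher in blood-derived phagocytes than in resting microglia were the sums of 6 border macrophage markers, from 305 to 677 CPM against 1.25 to 142. So were those of 8 monocyte-derived markers, from 1811 to 7168 CPM against 32.6 to 121. In activated microglia the border macrophage sums ran from 30.8 to 312 CPM. The monocyte-derived sums had medians of 3958 CPM (vehicle) and 4921 CPM (inhibitor) there, above the 2113 and 2161 CPM of blood-derived phagocytes. The part of these markers in the result was not tested.

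With inhibitor, Msr1 in activated microglia had a lowest, median and highest library of 0, 11.2 and 58.7 CPM, a difference from vehicle of -1.48 ± 0.95 (adjusted p = 0.999). In blood-derived phagocytes the difference was -0.56 ± 0.20 (adjusted p = 0.232). In resting microglia, where no test was made, levels ran from 2.47 to 11.3 CPM with inhibitor and from 8.40 to 48.4 with vehicle, a log2 difference of -1.62 ± 0.50.

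Marco (1:120474538-120505024, ENSMUSG00000026390), a collagenous receptor that binds bacteria and particles, was at or near 0 in most libraries. Of 8 genes it was the one that passed the count filter in fewest comparisons. In blood-derived phagocytes 3 of 6 inhibitor libraries held 5.17 to 6.22 CPM and the other 3 were at 0, and 4 of 5 vehicle libraries were at 0. In activated microglia it ran from 0 to 4.69 CPM, and inhibitor differed from vehicle by 0.38 ± 1.96 (SE, edgeR adjusted p = 0.999).

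Scarb1 (5:125277087-125341094, ENSMUSG00000037936), a receptor that takes cholesterol ester from high-density lipoprotein, was steady within resting microglia and blood-derived phagocytes. With vehicle, resting microglia held 48.4 to 57.4 CPM and blood-derived phagocytes 82.0 to 101 CPM, with no overlap. The log2 difference was 0.89 ± 0.08 with vehicle (edgeR adjusted p = 1.25e-06) and 1.06 ± 0.10 with inhibitor (adjusted p = 1.13e-07). Activated microglia with vehicle, at 29.1 to 55.3 CPM, lay 0.98 ± 0.16 below blood-derived phagocytes (adjusted p = 0.0014), and with inhibitor the difference was 1.74 ± 0.69 (adjusted p = 0.0973). The latter was called in 5 of 9 other settings (adjusted p = 0.0323 with DESeq2). Inhibitor against vehicle differed by 0.03 ± 0.07 in blood-derived phagocytes (adjusted p = 0.907). In activated microglia with inhibitor the lowest, median and highest libraries held 0.168, 23.9 and 62.3 CPM of Scarb1, so this group ran from below to above the vehicle libraries, and the difference was -0.75 ± 0.76 (adjusted p = 0.999). The gene overlaps Gm42633 on the same strand, so reads in that stretch could be from either.

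Olr1 (6:129485244-129507165, ENSMUSG00000030162), the lectin-like receptor for oxidised LDL, was highest in activated microglia. With vehicle those libraries held 17.4, 30.1, 8.001, 43.5 and 15.2 CPM. Resting microglia with vehicle held 1.66, 1.98, 1.68, 0.170 and 1.07 CPM, and blood-derived phagocytes 7.30, 5.36, 9.83, 6.21 and 4.14. Activated and resting libraries with vehicle did not overlap, while with inhibitor they did (0.619 to 33.4 against 0.772 to 3.84 CPM).

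Activated exceeded resting microglia 19.7-fold with vehicle, by 4.30 ± 0.72 on the log2 scale (SE, edgeR adjusted p = 0.000997), and with inhibitor by 3.85 ± 0.83 (adjusted p = 0.00284). Blood-derived phagocytes lay 2.45 ± 0.47 above resting microglia (adjusted p = 0.000551). They lay 1.86 ± 0.49 below activated microglia (adjusted p = 0.0214), which was lost without any of 5 single libraries, with adjusted p from 0.0512 to 0.0625. With inhibitor that difference was -2.39 ± 0.72 (adjusted p = 0.0304), lost without any of 8 single libraries, with adjusted p from 0.0508 to 0.0709. Within blood-derived phagocytes Olr1 ran from 2.18 to 5.61 CPM with inhibitor and from 4.14 to 9.83 with vehicle, a difference of -0.78 ± 0.27 (adjusted p = 0.203), and in activated microglia the difference was -0.29 ± 0.77 (adjusted p = 0.999).

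In activated microglia 11 of 11 neutrophil markers reached 1 CPM in at least 1 library, against 9 to 10 of 11 in the other groups. Olr1 was set beside their sum. Among inhibitor libraries the lowest Olr1 level, 0.619 CPM, was in the library with the lowest neutrophil sum, 20150 CPM, and the highest, 33.4 CPM, in the library with the highest sum, 141700 CPM. Among vehicle libraries the highest Olr1 level, 43.5 CPM, was in the library with the highest sum, 82190 CPM, but the library with the lowest sum, 26010 CPM, held 30.1 CPM of Olr1 and one with a sum of 53880 CPM held 15.2. The vehicle libraries stood in a different order by Olr1 than by the neutrophil sum, with the same library highest by both. The part of neutrophil RNA in the Olr1 level was not tested.

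**Figure D2:**
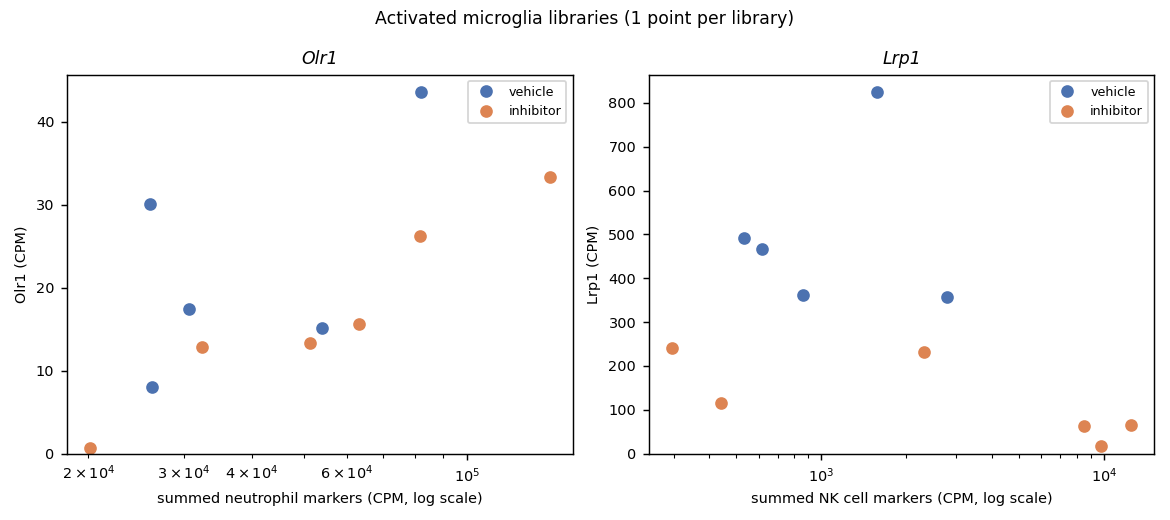
Each point is 1 of the 11 activated microglia libraries with vehicle (blue) or inhibitor (orange). Olr1 in CPM is plotted against the sum of 11 neutrophil markers (left), and Lrp1 in CPM against the sum of 6 NK cell markers (right), both sums on a log axis. The 3 inhibitor libraries with NK sums of 8520 to 12510 CPM hold 16.2 to 66.4 CPM of Lrp1.

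Lrp1 (10:127538161-127621148, ENSMUSG00000040249), a large endocytic receptor of lipoproteins and myelin, was abundant in resting microglia and blood-derived phagocytes. With vehicle, resting microglia held 1463, 1028, 1136, 1187 and 787 CPM and blood-derived phagocytes 924, 1023, 835, 1139 and 865. Activated microglia with vehicle held 466.1, 824, 358, 362 and 492.7 CPM. With inhibitor, activated microglia held 16.2, 114, 66.4, 231, 61.9 and 241 CPM, each below the lowest vehicle library of that population. An antisense gene, Gm16217, overlaps Lrp1, and whether counting used strand is not given in the sources used here.

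With vehicle, Lrp1 was 2.05-fold lower in activated than in resting microglia, a log2 difference of -1.03 ± 0.21 (SE, edgeR adjusted p = 0.0037). It was 0.92 ± 0.20 higher in blood-derived phagocytes than in activated microglia (adjusted p = 0.00673). Blood-derived phagocytes and resting microglia differed by -0.06 ± 0.13 (adjusted p = 0.695). With inhibitor the log2 difference was -2.61 ± 0.54 between activated and resting microglia (adjusted p = 0.00207) and 2.37 ± 0.55 between blood-derived phagocytes and activated microglia (adjusted p = 0.00726). Blood-derived phagocytes and resting microglia with inhibitor differed by -0.25 ± 0.11 (adjusted p = 0.0644).

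Inhibitor against vehicle in activated microglia gave -1.90 ± 0.57 for Lrp1, a level 3.75-fold lower, with an unadjusted p of 0.00503 and an edgeR adjusted p of 0.999, so the difference did not pass the threshold. In 1 fit over all 33 libraries it was called, at -1.92 ± 0.38 (adjusted p = 0.0111). Lrp1 was 1 of 8 genes whose groups did not overlap downward, against 0.454% of the genes tested. The 3 inhibitor libraries with the lowest Lrp1 levels were those with the highest sums of 6 NK cell markers, 8520 to 12510 CPM, against 534 to 2782 with vehicle. The other 3 inhibitor libraries, with NK sums of 296 to 2315 CPM, held 114 to 241 CPM of Lrp1. The sums of 6 border macrophage markers ran from 30.8 to 192 CPM with inhibitor and from 163 to 312 with vehicle, and the 6 inhibitor libraries stood in the same order by that sum as by Lrp1. The part of either marker list in the Lrp1 level was not tested. With the neutrophil marker level as a covariate the difference was -2.45 ± 0.64 (adjusted p = 0.528). Without the 3 libraries under 11000 detected genes it was -1.45 ± 0.49 (adjusted p = 0.995). Inhibitor against vehicle gave -0.42 ± 0.11 in blood-derived phagocytes (adjusted p = 0.119). The difference between both effects was -1.48 ± 0.62 (adjusted p = 0.855).

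Lrp12 (15:39870589-39943994, ENSMUSG00000022305), a less studied member of the LDL receptor family, was the 1 gene of the 8 that passed the test for the inhibitor in blood-derived phagocytes or activated microglia; in resting microglia none was tested. In blood-derived phagocytes vehicle libraries held 62.5, 54.4, 45.6, 43.4 and 41.9 CPM. With inhibitor the lowest, median and highest were 25.7, 28.8 and 31.1 CPM. All 6 inhibitor libraries lay below all 5 vehicle libraries.

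Lrp12 was 1.77-fold lower with inhibitor in blood-derived phagocytes, a log2 difference of -0.82 ± 0.11 (SE, edgeR adjusted p = 0.0111). It was 1 called of the 7 genes that passed the filter, against 0.274% of the 11670 genes tested. It was 1 of 8 without overlap downward, against 0.591%. Without inhibitor replicate 5 the difference was -0.81 (adjusted p = 0.0554), and in 1 fit over all 33 libraries it was -0.83 (adjusted p = 1.0). The sums of 6 dendritic cell markers in these libraries ran from 131 to 612 CPM with inhibitor and from 85.5 to 194 with vehicle, and those of 6 NK cell markers from 30.6 to 137 and from 5.16 to 40.01. Both ranges overlapped between the groups, and their part in the Lrp12 difference was not tested. In activated microglia the inhibitor libraries held 0 to 13.1 CPM and the vehicle libraries 7.68 to 28.98, a difference of -1.64 ± 1.39 (adjusted p = 0.999). The difference of the effects in these populations was -0.81 ± 1.25 (adjusted p = 1.0).

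Between populations with vehicle, Lrp12 was lower in activated than in resting microglia by 1.47 ± 0.35 log2 units (fold 0.36, edgeR adjusted p = 0.0079). Blood-derived phagocytes exceeded activated microglia by 1.74 ± 0.34 (adjusted p = 0.00387) and differed from resting microglia by 0.30 ± 0.15 (adjusted p = 0.0923). With inhibitor, activated microglia differed from resting microglia by -2.79 ± 1.18 (adjusted p = 0.0865), called in 4 of 9 other settings. Blood-derived phagocytes differed from activated microglia by 2.53 ± 1.17 (adjusted p = 0.158), called in 3 of 9. Blood-derived phagocytes lay just below resting microglia there, at 25.7 to 31.1 against 31.8 to 50.5 CPM. That log2 difference was -0.27 ± 0.11 (adjusted p = 0.0528, and 0.0433 with RLE size factors and 0.0487 with DESeq2).

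Plin2 (4:86648386-86670060, ENSMUSG00000028494), which coats lipid droplets, separated resting microglia from the other populations. With vehicle, resting microglia held 81.7, 148, 115, 82.3 and 79.3 CPM, activated microglia 392, 711, 330, 406 and 189, and blood-derived phagocytes 514, 374, 657, 486 and 522. No resting library reached the lowest activated library.

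Plin2 was 4.37-fold higher in activated than in resting microglia with vehicle, by 2.13 ± 0.32 on the log2 scale (SE, edgeR adjusted p = 0.000475), and by 1.86 ± 0.23 with inhibitor (adjusted p = 4.09e-05). It was 5.61-fold higher in blood-derived phagocytes than in resting microglia with vehicle, by 2.49 ± 0.22 (adjusted p = 2.48e-06), and by 2.62 ± 0.17 with inhibitor (adjusted p = 3.17e-09). Blood-derived phagocytes and activated microglia differed by 0.32 ± 0.29 with vehicle (adjusted p = 0.512). With inhibitor the difference was 0.78 ± 0.25 (adjusted p = 0.0429), lost without any of 8 single libraries, with adjusted p from 0.0557 to 0.102. Inhibitor against vehicle gave -0.64 ± 0.32 in activated microglia (adjusted p = 0.999) and -0.15 ± 0.18 in blood-derived phagocytes (adjusted p = 0.737).

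**Figure D3:**
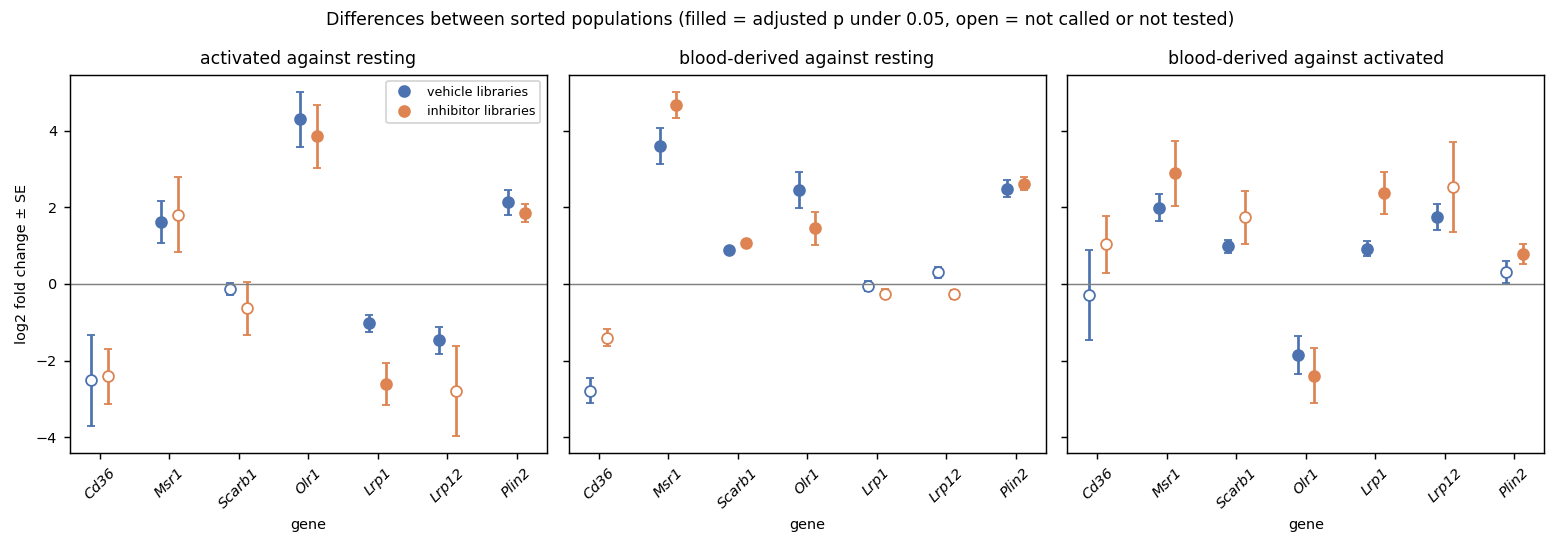
Log2 fold change ± SE between sorted populations for 7 genes, in vehicle (blue) and inhibitor (orange) libraries, with filled points where the adjusted p was under 0.05 and open points where it was not or where no test was made. Olr1 and Plin2 lie above 0 in activated against resting microglia (4.30 and 2.13 with vehicle), and Lrp1 and Lrp12 below 0.

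Counted over the 8 genes, Marco did not pass the filter and Cd36 was not tested against resting microglia. That left 6 genes tested against resting microglia and 7 between blood-derived phagocytes and activated microglia, with either treatment. Between activated and resting microglia with vehicle 5 were called, where 28.9% of all genes tested were called. Of the 5, 3 were higher, against 18.2% of all genes, and 2 lower, against 10.7%. Between blood-derived phagocytes and resting microglia 4 were called, all higher, where 62.5% of all genes were called, 30.9% higher and 31.6% lower. Between blood-derived phagocytes and activated microglia 5 were called, against 18.8%, with 4 higher against 6.48% and 1 lower against 12.3%. These shares by direction moved with the setting. Of the calls over all genes, 63% were higher in activated than in resting microglia, against 49.7% with limma-trend on the authors' log2 FPKM. Between blood-derived phagocytes and activated microglia 34.5% of the calls were higher, against 54.1% with limma-trend. With RLE size factors the shares were 57.9% and 34.3%, so the second hardly moved with the size factors alone.

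With inhibitor 3 of the 6 genes tested were called between activated and resting microglia, against 33.3% of all genes. Olr1 and Plin2 were higher (22.1% of all genes) and Lrp1 lower (11.2%). There 66.3% of the calls over all genes were higher, against 56.2% with RLE size factors and 48% on log2 FPKM. Between blood-derived phagocytes and resting microglia 4 were called, all higher, against 63.5%, 31.2% higher and 32.2% lower. Between blood-derived phagocytes and activated microglia 4 were called, Msr1, Lrp1, Plin2 and Olr1, against 20.2% of all genes in either direction. With detected genes per library added as a covariate, the calls of Msr1 and Lrp12 between activated and resting microglia with vehicle, of Lrp1 there with inhibitor, of Olr1 between blood-derived phagocytes and resting microglia with inhibitor, and of Msr1, Olr1 and Plin2 between blood-derived phagocytes and activated microglia with inhibitor were lost.

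In activated microglia 0 of 8 were called between inhibitor and vehicle, and 0.0% of 11675 genes, with 417 genes at an unadjusted p under 0.05 and 4 called by DESeq2. For the difference between the inhibitor effects in activated microglia and blood-derived phagocytes, 0 of 8 were called and 0.0% of 12568 genes, with 682 at an unadjusted p under 0.05 and 32 called by DESeq2.

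**Figure D4:**
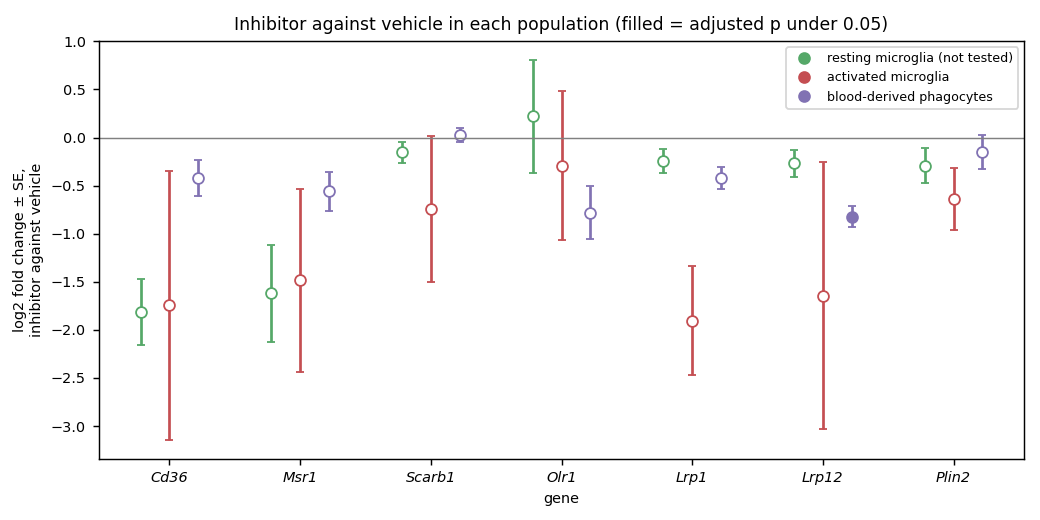
Log2 fold change ± SE of inhibitor against vehicle for 7 genes in each population, with filled points where the adjusted p was under 0.05. Lrp12 in blood-derived phagocytes (-0.82) is filled, and resting microglia (green) has no test.

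Levels of different genes were compared per length on the authors' log2(FPKM + 1) scale. Plin2 was the highest of the 8 in blood-derived phagocytes with vehicle, at 8.21 ± 0.32 (SD, n = 5), above Lrp1 at 6.59 ± 0.15 and Msr1 at 6.53 ± 0.31. In resting microglia with vehicle the order was Lrp1 at 6.63 ± 0.28, Plin2 at 5.82 ± 0.38 and Cd36 at 4.81 ± 0.77. Olr1 reached 2.64 ± 0.84 in activated microglia with vehicle, its highest group. Groups next to each other in the order of Plin2, blood-derived phagocytes with vehicle, with inhibitor and activated microglia with vehicle, differed by less than the larger of their SDs.

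**Figure D5:**
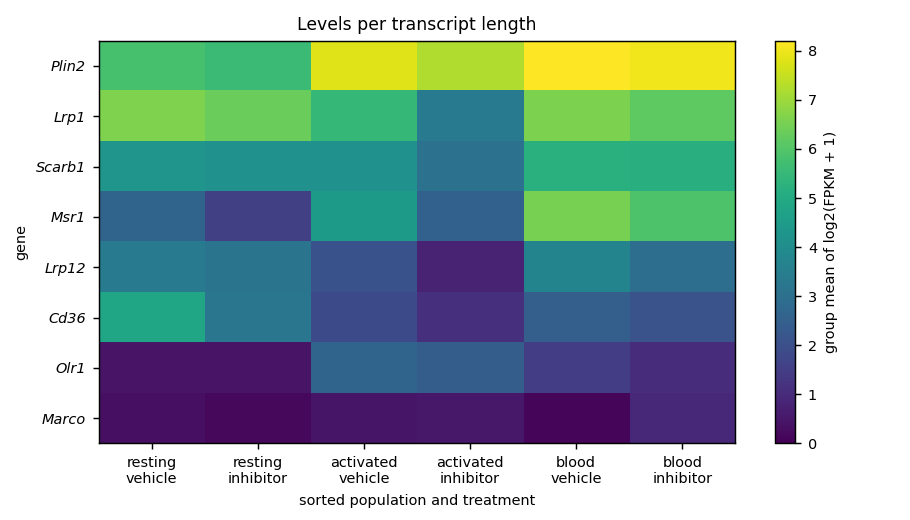
Colour is the group mean of log2(FPKM + 1), a per-length scale, for the 8 genes (rows, ordered by mean) in the 6 groups (columns). Plin2 in blood-derived phagocytes is the brightest cell at 8.21 with vehicle, and Marco stays below 1 in every group.

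The genes whose 6 group means followed each member most closely, on centred log2(CPM + 1) profiles over 11443 genes, were described by their root mean square difference. For Cd36 they were Ch25h (0.454), Notch4 (0.47) and Eya4 (0.473), and for Msr1 Apoe (0.263), Nr1h3 (0.343) and Gdf3 (0.364). For Olr1 they were Capn1 (0.235), Dmxl2 (0.256) and Pdlim1 (0.286), and for Plin2 C3 (0.115), Haus8 (0.129) and Gpr65 (0.165). For Lrp1 they were Snx24 (0.103), Gbgt1 (0.135) and Cln8 (0.165), for Lrp12 Cln8 (0.185), Sdc3 (0.2) and Tmem86a (0.201), and for Scarb1 Smim13 (0.0887), Ppp1r12b (0.0896) and Gid4 (0.117). Marco, whose group means spanned 1.2, was under the span of 2 needed. The 6 group means of a gene share libraries, and these are descriptions of level.

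A wider list of 63 scavenger, lipoprotein, fatty acid and lipid droplet genes besides the 8 was read in the same fits, and 62 were counted, of which 47 to 51 passed the filter in each comparison. With vehicle, 11 of the 50 that passed were called higher and 6 lower in activated than in resting microglia. Of all genes tested, 18.2% were higher and 10.7% lower. Of the 11 lipid droplet genes that passed, 5 were higher and 0 lower. Among the 5 was Dgat1, which makes triglyceride, at 370 ± 233 against 25.5 ± 6.36 CPM (log2 difference 4.10 ± 0.52 (SE), edgeR adjusted p = 0.00016). Another was Hilpda, at 160 ± 130 against 18.2 ± 10.7 CPM. Of lipoprotein receptors and genes that act on them, for or against uptake, 1 was higher, Sorl1, and 4 lower. Among the 4 were Mylip (-1.50 ± 0.23) and Lrpap1 (-0.98 ± 0.17), the chaperone of Lrp1. The median over the list was 0.26, and over all genes tested -0.10. Activated microglia held neutrophil markers as given above, and their part in these counts was not tested.

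In blood-derived phagocytes against resting microglia with vehicle, 25 of the 50 that passed the filter were called higher and 10 lower. Of all genes tested, 30.9% were higher and 31.6% lower. Fabp5, which carries fatty acids, stood at 405 ± 63.9 against 29.6 ± 15.3 CPM (3.92 ± 0.34 (SE), edgeR adjusted p = 2.65e-06), and Scarf1, a scavenger receptor, at 52.9 ± 8.80 against 2.45 ± 1.51 (4.62 ± 0.39). Pparg, a lipid-sensing nuclear receptor, stood at 5.86 ± 0.87 against 0.602 ± 0.435 CPM (3.36 ± 0.54). The opposite was measured for Scarf2 (-4.22 ± 0.34) and for Mgll, which breaks down monoglyceride (-4.19 ± 0.49). The list median was 0.46, and over all genes tested -0.04.

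Against activated microglia with vehicle, blood-derived phagocytes had 10 of the 48 that passed the filter higher and 6 lower. Of all genes tested, 6.48% were higher and 12.3% lower. Fabp5 (1.999 ± 0.23 (SE)) and Cd68 (1.41 ± 0.14) were among the higher, Dgat1 (-4.11 ± 0.48) and Sorl1 (-1.69 ± 0.27) among the lower. With inhibitor 13 of 47 that passed were higher and 6 lower in activated than in resting microglia, against 22.1% and 11.2% of all genes. Between blood-derived phagocytes and resting microglia 24 of 49 were higher and 11 lower, against 31.2% and 32.2%. Between blood-derived phagocytes and activated microglia 16 of 49 were called, against 20.2% in either direction. For inhibitor against vehicle, 0 of 50 that passed were called in activated microglia, as of all genes. In blood-derived phagocytes 0 of 49 were called, against 0.274% of all genes. The list medians were -0.46 and -0.09.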

How the data were processed

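RNA was sequenced from 33 libraries of sorted mouse brain cells. Per the labels' protocols, cells went straight into lysis buffer and RNA was amplified with SMART-Seq v4. The submitters' processing notes name bcl2fastq and GRCm38. Neither aligner nor counter is named in the sources used here. In the authors' deposited count table, 21950 genes, nearly all protein-coding, have expected counts; 16.3% of values were not whole, and all were rounded. A further table the authors deposited gives log2(FPKM + 1) for 27745 genes, at a 75th percentile of 2.936 throughout.

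Symbols and positions came from GENCODE M21. CPM are counts per 1000000 of the library total. edgeR 4.0.16 in R 4.3.3 (filterByExpr, TMM, robust quasi-likelihood F test) was fitted to the libraries of the groups compared, and p-values adjusted by Benjamini-Hochberg across every tested gene, called under 0.05. SE is the log2 fold change divided by the square root of F. The code was tested on simulated data. The 8 genes, the wider list and the markers were chosen with earlier results of these data known. All 8 genes were named; of the wider list, up to 4 called genes per sublist with the smallest p could be named per comparison, and for each of the 8 whose group means spanned at least 2, the 3 genes of closest profile. Comparisons that share a group are not independent. Alternatives were DESeq2 1.42.0, limma 3.58.1 (voom with quality weights, and trend on log2 FPKM), RLE size factors, a filter of only 1 count, a joint fit of all 33 libraries, replicate number as a block, detected genes or neutrophil marker level as a covariate, leaving out libraries under 11000 detected genes, and leaving out each library in turn.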

Additional observations from a re-analysis of the deposited data

Results flagged for a closer look

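Dixon's ratio is the gap between an end library and the next, over the range of its group in CPM. By chance it marks about 5% of pairs of gene and group where values are normally spread. That does not hold at or near 0, so the number of pairs marked is not read as an excess. In 6 of 48 pairs this ratio set 1 library apart from the others of its group. For Marco these were vehicle replicate 3 of activated microglia at 3.977 CPM, with the next at 0.7205, vehicle replicate 4 of blood-derived phagocytes at 0.8419 CPM, with the others at 0, and inhibitor replicate 4 of resting microglia at 1.058 CPM, with the next at 0.2518. Olr1 stood at 3.841 CPM in the same inhibitor replicate 4 of resting microglia, with the next at 1.47. Lrp1 stood at 824.3 CPM in vehicle replicate 2 of activated microglia, with the next at 492.7, and without that library the difference of inhibitor against vehicle was -1.70 on the log2 scale (edgeR adjusted p = 1.0). Lrp12 stood at 50.51 CPM in inhibitor replicate 5 of resting microglia, with the next at 37.9.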

How the results depend on the processing

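Over 1483 values of the 8 genes under other settings or without 1 library, 55 lost a call, 32 gained one and 16 changed sign, 13 in tested contrasts, none of them called, and 3 in contrasts with no test. Members called for the inhibitor went in activated microglia from 0 to 1, Lrp1, with all 33 libraries in 1 fit, and in blood-derived phagocytes from 1 to 2 with DESeq2 or detected genes as a covariate and to 0 with all 33 libraries. Activated against resting microglia with vehicle went from 5 to 3 with all 33 libraries and with detected genes as a covariate, and with inhibitor from 3 to 5 with limma-voom and with all 33 libraries. Blood-derived against activated went from 5 to 2 with all 33 libraries and vehicle. With inhibitor it went from 4 to 1 with detected genes as a covariate and to 6 with limma-voom, log2 FPKM or all 33 libraries. There Scarb1 and Lrp12 gained a call. Blood-derived against resting with inhibitor went from 4 to 6 with DESeq2, which called Lrp1 and Lrp12 too, and to 2 with all 33 libraries. That joint fit lost Lrp12 for the inhibitor, Msr1 and Lrp12 in activated against resting and Scarb1, Lrp1 and Lrp12 in blood-derived against activated with vehicle, and, in blood-derived against resting, Scarb1 and, with inhibitor, Olr1. Causes were not tested. Leaving out 1 library gave 0 to 2 calls in blood-derived phagocytes and 1 to 4 in blood-derived against activated with inhibitor, and for Cd36 in resting microglia log2 differences from -2.01 to -1.48.

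Signs changed for Cd36 for the inhibitor in activated microglia (0.11 with limma-voom), Marco there (-1.26 with limma-voom, -0.28 with the replicate block), Scarb1 for the inhibitor in blood-derived phagocytes (-0.034 on log2 FPKM), Scarb1 in activated against resting with inhibitor (0.23 with detected genes), Cd36 in blood-derived against activated with vehicle (1.02 with limma-voom, 0.64 on log2 FPKM, 1.32 with the replicate block) the Cd36 difference of effects (0.51 with limma-voom) and, with no test, Cd36 in activated against resting with vehicle (0.10 with detected genes). Leaving out 1 library moved Olr1 for the inhibitor in activated microglia from -0.76 to 0.14, Olr1 for the inhibitor in resting microglia, with no test, from -0.32 to 0.44, Scarb1 for the inhibitor in blood-derived phagocytes from -0.0048 to 0.070, Lrp1 in blood-derived against resting with vehicle from -0.15 to 0.036 and Cd36 in blood-derived against activated with vehicle from -0.59 to 0.78. Replicate numbers did not pair libraries: correlations of their deviations ran from -0.181 to 0.305, and 6 of 48 were best with their own number. The replicate block lost Msr1 in activated against resting (adjusted p = 0.0558) and Olr1 in blood-derived against activated (adjusted p = 0.125) with vehicle, and Olr1 there with inhibitor (adjusted p = 0.228). RLE moved the median of all genes in activated against resting with inhibitor from -0.0115 to -0.199 and the share of higher calls from 66.3% to 56.2%. For the inhibitor in blood-derived phagocytes 32 of all genes were called, against 354 with DESeq2, 61 to 132 with limma-voom, log2 FPKM, detected genes or the block, 0 with all 33 libraries and 0 to 181 without 1 library. In activated microglia 0 were called, against 4 with DESeq2 and 322 with all 33 libraries, in resting microglia 0 against 13 with DESeq2, and for the difference of effects 0 against 32 with DESeq2, 4 with all 33 libraries and 1 with the block. With vehicle, blood-derived against resting gave 7542 calls, against 3493 with all 33 libraries and 4117 with detected genes, and blood-derived against activated 2176, against 1401 with the block and 3619 without libraries under 11000 detected genes. With inhibitor, activated against resting gave 4007, against 6121 with all 33 libraries and 2258 with detected genes, blood-derived against resting 7628, against 3967 with all 33 libraries, and blood-derived against activated 2348, against 3815 with limma-voom, 3969 with all 33 libraries and 3781 without those libraries.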
